A study of Homo sapiens with 4 samples.

Results

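The genes described here are 10 alpha- and beta-tubulin isotype genes, chosen by name from the 51103 genes listed for each library: TUBA1A, TUBA1B, TUBA1C and TUBA4A for alpha-tubulin, and TUBB, TUBB2A, TUBB2B, TUBB3, TUBB4B and TUBB6 for beta-tubulin. Their polyadenylated RNA was compared between SCC-15 cells carrying REEP6 overexpression (2 libraries) and negative control SCC-15 cells (2 libraries). SCC-15 is an established human line described in the labels as oral squamous cell carcinoma, and lentivirus from a commercial supplier was used to make the overexpressing line. Cells were taken up in Trizol after 48 hours, and no other treatment is named. The sources used here do not say what the control cells received, whether either line was a clone, or whether replicates came from different cultures. The p-values therefore reflect the spread among these 4 libraries alone, and that spread may be technical.

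Microtubules are hollow polymers of alpha- and beta-tubulin dimers. Humans encode several isotypes of each, which co-assemble, and which differ mainly in their acidic C-terminal tails, where many enzymes modify the polymer. Cells also regulate tubulin RNA after transcription: when free dimers are abundant, the factor TTC5 recognises the first residues of nascent tubulin at the ribosome and the RNA is degraded. REEP6 is a membrane protein of the endoplasmic reticulum, a network that is spread along microtubules, and some relatives of REEP6 bind microtubules themselves.

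The libraries held between 12856256 and 15208629 counts assigned to genes. REEP6 itself had 649 and 680 counts in the REEP6 libraries, against 348 and 468 in the controls. This corresponds to 20.4 ± 0.602 FPKM with REEP6 and 11.8 ± 1.07 FPKM in the controls (SD, n = 2 each). REEP6 was thus 1.76-fold higher (edgeR adjusted p 0.00119), in the direction of the labels. The squamous part of the label was not borne out by marker genes. Of 11 squamous epithelial markers EPCAM alone reached 1 FPKM in a library, DSG3 and KRT6A had no count in any library, and the 10 markers other than EPCAM stayed at or below 0.484 FPKM, KRT5, KRT14 and TP63 among them. Of 12 neuronal markers 5 reached 1 FPKM, while DCX and ELAVL4 were at 0. Among these 5, SNAP25 and STMN2 fell (edgeR log2 fold changes -0.88 and -0.69), SYN1 rose (0.74), and GAP43 (0.57) and SYP (-0.02) were not called. The summed level of the 12, mostly SNAP25 and STMN2, was 67.8 and 70.1 FPKM with REEP6, against 98.8 and 107 FPKM in the controls. The 10 fibroblast markers summed to 18.3 and 18.1 FPKM with REEP6, against 36.6 and 34.5 FPKM in the controls, with COL3A1 the most abundant and FAP at 0. COL3A1, LUM, PDGFRB and POSTN fell, and PDGFRA, which reached 1 FPKM in 1 library, was not tested. LYZ alone of 6 leukocyte markers reached 1 FPKM and was not called, and none of 4 endothelial markers did. The part of these differences in the tubulin results was not tested. In bulk RNA, a change in the cells present and a change in RNA per cell cannot be told apart.

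The sequences of the isotypes matter for these counts in a pair of ways: the first codons carry the signal read by TTC5, and coding sequences that are nearly the same can share reads. The first 30 coding bases of 6 members are shown to make both visible, 5′ to 3′, from the principal GENCODE release 29 transcripts on GRCh38, with the first 4 codons in capitals.
TUBA1B: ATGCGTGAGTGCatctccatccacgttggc
TUBA1C: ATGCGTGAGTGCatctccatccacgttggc
TUBA4A: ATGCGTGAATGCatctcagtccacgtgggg
TUBB: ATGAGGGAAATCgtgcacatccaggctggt
TUBB2A: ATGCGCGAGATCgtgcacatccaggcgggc
TUBB2B: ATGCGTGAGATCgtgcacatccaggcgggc

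All 4 alpha genes encoded one and the same start peptide, and all 6 beta genes encoded another one, in different codons. TUBA1A had the same first 30 bases as TUBA1B and TUBA1C. The isotypes part at the other end. The last coding bases of 5 members follow, ending with the stop codon, with the last sense codon in capitals.
TUBA1C: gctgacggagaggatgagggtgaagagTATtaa
TUBA4A: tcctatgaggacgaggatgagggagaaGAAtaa
TUBB: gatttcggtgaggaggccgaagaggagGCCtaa
TUBB2A: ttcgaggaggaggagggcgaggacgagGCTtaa
TUBB2B: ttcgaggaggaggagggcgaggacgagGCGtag

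TUBA1C ended in a tyrosine codon, the residue that is removed and restored on alpha-tubulin in cells, and TUBA4A did not. TUBB2A and TUBB2B were alike over this stretch except in the last sense codon and the stop codon. Over the whole coding sequence TUBB2A and TUBB2B were 98.1% identical in bases, TUBA1A and TUBA1B 97.2%, and TUBA1B and TUBA1C 96.8%. The 6 alpha pairs ranged from 84.4% to 97.2% and the 15 beta pairs from 81.0% to 98.1%. The sources used here do not say how reads matching several genes were counted. The share of each transcript that another gene could claim was measured. Of all 100-base windows, 54.4% of TUBB2A, 42.4% of TUBB2B, 32.1% of TUBA1B, 18.6% of TUBA1A and 11.5% of TUBA1C occurred unchanged in another of the 10 genes. Read length is not given in the sources used here, and with 50-base windows the shares were higher, at 60.4% for TUBB2A, 47.3% for TUBB2B, 56.6% for TUBA1B, 41.6% for TUBA1A and 25.1% for TUBA1C. At 100 bases the share was 5.15% for TUBB3, 2.86% for TUBB4B and 0% for TUBB, TUBB6 and TUBA4A. Counts of TUBB, TUBB4B, TUBB6 and TUBA4A were therefore nearly free of this ambiguity among members at 100 bases. The division of counts within the TUBA1 group and between TUBB2A and TUBB2B is uncertain. With any other annotated gene included, 5.1% of TUBB windows were shared at 100 bases and 18.2% at 50 bases, with TUBBP1 first. At 50 bases this share was 9.89% for TUBB4B, 5.25% for TUBA4A and 0.99% for TUBB6.

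**Figure D1:**
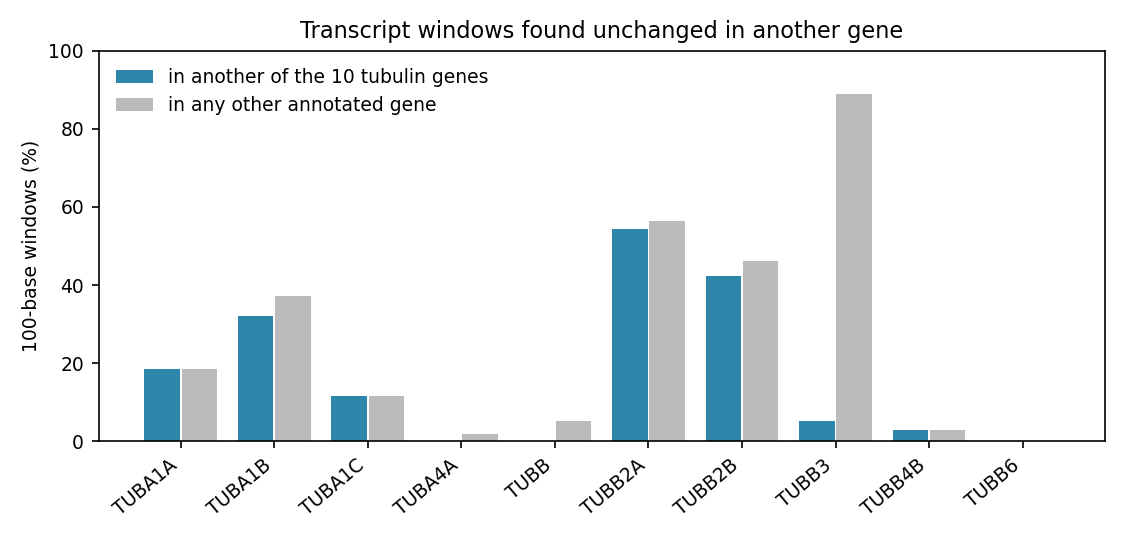
Share of 100-base windows (%) of each gene's principal transcript that occur unchanged in another of the 10 tubulin genes (blue) or in any other annotated gene (grey). TUBB2A and TUBB2B share most within the family, and TUBB3 shares 89.0% with other genes in all.

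With REEP6 overexpression, RNA of 4 of the 10 tubulin genes rose and that of none fell: TUBB by 1.59-fold, TUBB2B by 1.49-fold, TUBA1B by 1.40-fold and TUBB6 by 1.34-fold. The test was edgeR's quasi-likelihood test on counts of 13077 genes with Benjamini-Hochberg adjustment, at an adjusted p of 0.05. The other 6 genes did not pass. All 10 members met the filter of 1 FPKM in at least 2 libraries, TUBB3 through the controls alone. Across all genes tested 10.9% were called higher and 14.2% lower (1422 and 1854 genes), a split that scaling to equal FPKM sums moved to 658 higher and 2826 lower, with 3 members higher and 0 lower. The median log2 fold change was 0.28 over the members and -0.01 over all genes tested. In 7 members both REEP6 libraries lay above both controls (30.4% of all genes tested did so), and in 1, TUBB3, both lay below (33.2% of all genes). The 10 proliferation genes described below gave the same counts, 7 above and 1 below, with a median log2 fold change of 0.20. This pattern was thus not particular to the tubulin genes. The members had been selected with earlier results of these libraries known, so the counts are a description of the family.

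**Figure D2:**
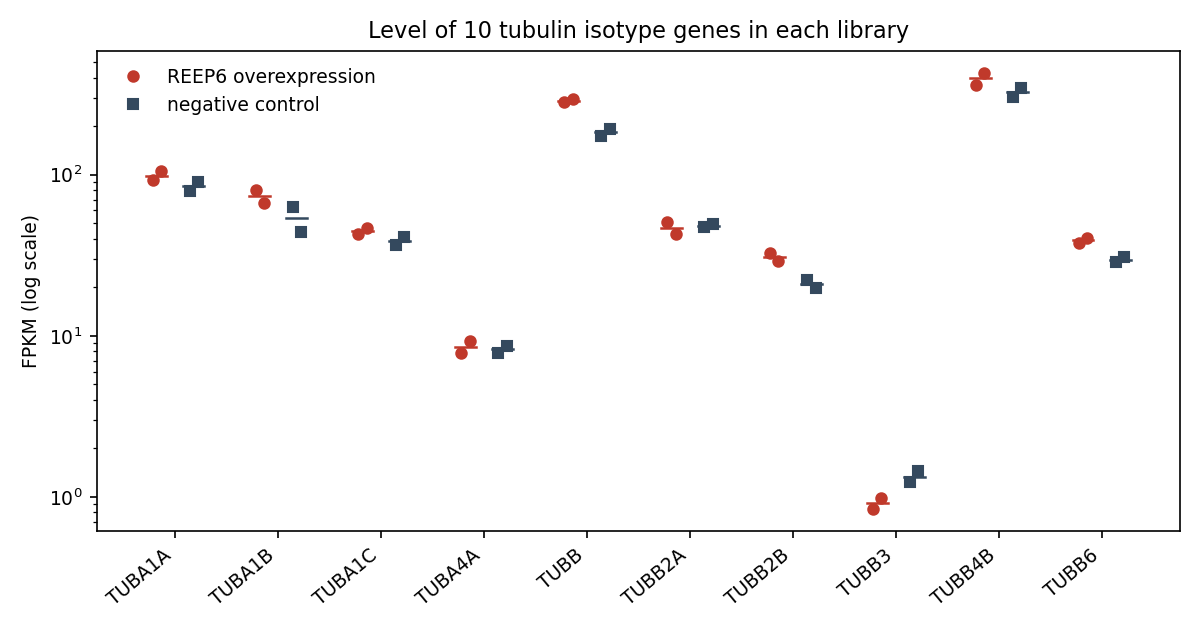
FPKM (log scale) of the 10 tubulin genes in each library. Red circles are the 2 REEP6 libraries, dark squares the 2 controls, and short lines the group means. The groups stand clear of each other at TUBB and TUBB2B and overlap at TUBA4A and TUBB2A.

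TUBB encodes the beta class I isotype found in most tissues, and showed the largest increase among the members. TUBB (ENSG00000196230, chromosome 6, 30720201 to 30725426, plus strand, GRCh38) had 12559 and 13127 counts in the REEP6 libraries, against 7562 and 9881 in the controls. Per length, its level was 282 and 294 FPKM with REEP6, against 175 and 193 FPKM in the controls. Both REEP6 libraries were high and close to each other, and the nearest control lay well below. The means were 288 ± 7.99 FPKM with REEP6 and 184 ± 12.9 FPKM in the controls (SD, n = 2 each), a log2 fold change of 0.67 ± 0.088 (SE) with an edgeR adjusted p of 0.00114. Its size on the log2 scale lay between 0.54 and 0.77 under 17 alternative settings and was called in each of them.

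TUBB2B and TUBB2A are class II beta isotypes that are neighbours on chromosome 6 and nearly the same in coding sequence. TUBB2B alone of the pair was called higher, on counts whose division between these genes is uncertain. TUBB2B (ENSG00000137285, 3224261 to 3231730, minus strand) had 942 and 851 counts with REEP6, against 630 and 661 in the controls. Its level was 32.4 and 29.2 FPKM with REEP6, against 22.3 and 19.8 FPKM in the controls, with no overlap. This gave a log2 fold change of 0.58 ± 0.106 (SE; edgeR adjusted p 0.00482). TUBB2A (ENSG00000137267, 3153669 to 3157526, minus strand) had 1167 and 981 counts with REEP6, against 1052 and 1291 in the controls. Its REEP6 libraries, at 51.1 and 42.7 FPKM, lay on either side of the controls at 47.4 and 49.2 FPKM. Its log2 fold change was -0.01 ± 0.107 (SE; edgeR adjusted p 0.937), with a sign that turned to 0.01 under upper quartile scaling. The ratio of TUBB2B to TUBB2A within a library does not depend on how libraries are scaled. It was 0.635 and 0.683 with REEP6, against 0.471 and 0.403 in the controls. The sum of TUBB2A and TUBB2B was 83.5 and 71.9 FPKM with REEP6, against 69.7 and 69.0 FPKM in the controls, 1.12-fold. The difference between the fold changes was not tested. The part of shared reads in it was not tested.

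The promoters of these neighbours are shown because their coding sequences are so alike while TUBB2B alone was called. The 130 bases before the RefSeq start (GRCh38.p14, chr6:3157545-3157674 for TUBB2A and chr6:3227654-3227783 for TUBB2B, minus strand) are printed 5′ to 3′, with any CCAAT or TATAAA, on either strand, in capitals.
TUBB2A: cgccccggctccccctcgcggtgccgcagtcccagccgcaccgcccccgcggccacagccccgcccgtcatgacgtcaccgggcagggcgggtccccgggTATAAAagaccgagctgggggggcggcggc
TUBB2B: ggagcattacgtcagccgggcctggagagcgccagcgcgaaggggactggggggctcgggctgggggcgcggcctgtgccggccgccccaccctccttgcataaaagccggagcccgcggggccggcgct

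Over the 250 bases before the start the promoters of TUBB2A and TUBB2B were 55.2% identical, so the near identity of these genes does not extend upstream. TUBB2A had a TATAAA at position -30, which 10.7% of 35116 promoters hold in the same window, and no other member had one. A CCAAT was found in 9 of the 15 listed promoters of the members, belonging to 7 genes (32.0% of all promoters hold one), among them TUBB2B with 1 at -178, upstream of the bases printed here, and TUBB4B with 3. A GGGCGG was found in 9 of the 15, belonging to 8 genes (42.6% of all promoters). These matches are descriptions of the letters, and the 4 genes that rose had no motif of these 3 in common that the others lacked.

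TUBB6, the class V beta isotype, rose with little spread. TUBB6 (ENSG00000176014, chromosome 18, 12307669 to 12344320, plus strand) had 2061 and 2214 counts with REEP6, against 1516 and 1931 in the controls. Its level was 37.8 and 40.4 FPKM with REEP6, against 28.6 and 30.8 FPKM in the controls, and the groups did not overlap. Its log2 fold change was 0.42 ± 0.0878 (SE; edgeR adjusted p 0.0084). It was called in all 17 alternative settings, with a log2 fold change between 0.29 and 0.50, though a correction for GC content left it just under the threshold (edgeR adjusted p 0.0489). Exons of AFG3L2 on the opposite strand cover 20.3% of its exon bases. AFG3L2 had 1382 and 1372 counts with REEP6 against 1517 and 1604 in the controls. Exons on the opposite strand also overlap TUBA1B, TUBB, TUBB2B, TUBB4B, TUBA1C and TUBA4A. AC011603.2 covers 36.6% of TUBA1B exon bases, with 6 and 2 counts with REEP6 against 2 and 5 in the controls. AL662797.1 covers 538 exon bases of TUBB, with 3 and 0 counts with REEP6 against 2 and 1 in the controls. PSMG4 covers 7.93% of TUBB2B exon bases, with 527 and 424 counts with REEP6 against 390 and 359 in the controls. STK16 covers 15.4% of TUBA4A exon bases, with 510 and 437 counts with REEP6 against 360 and 489 in the controls. The part of these overlaps in the tubulin values was not tested. Without strand in the counting, reads of such overlaps cannot be told apart, and the strand setting is not given in the sources used here.

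TUBB4B, the class IVb isotype, was the most abundant tubulin RNA by FPKM in all 4 libraries, and its change fell short of the threshold. TUBB4B (ENSG00000188229, chromosome 9, 137241213 to 137243707, plus strand) had 10114 and 12096 counts with REEP6, against 8247 and 11089 in the controls. Its level was 362 and 431 FPKM with REEP6, against 304 and 345 FPKM in the controls. The groups did not overlap, but the lower REEP6 library stood close to the higher control. The log2 fold change was 0.31 ± 0.106 (SE; edgeR adjusted p 0.0557). It was called in 6 of 17 alternative settings, among them without control replicate 2 (log2 fold change 0.44, edgeR adjusted p 0.0177), with DESeq2 (adjusted p 0.0277) and without REEP6 replicate 1 (0.43, edgeR adjusted p 0.0177). Without REEP6 replicate 2 it was 0.19 (edgeR adjusted p 0.362).

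TUBB3, the class III isotype used as a marker of neurons, was the least abundant member and the only one below its controls in both REEP6 libraries. TUBB3 (ENSG00000258947, chromosome 16, 89921392 to 89938761, plus strand) had 49 and 58 counts with REEP6, against 70 and 97 in the controls. Its level was 0.836 and 0.984 FPKM with REEP6, against 1.23 and 1.44 FPKM in the controls. The log2 fold change was -0.53 ± 0.244 (SE), and it did not pass (edgeR adjusted p 0.14), here or in any of 16 alternative settings that kept the gene. Its counts are incomplete or ambiguous by the annotation. Exons of the gene AC092143.1 on the same strand, which runs through TUBB3, share 35.8% of the exon bases of TUBB3. Of the 100-base windows of the principal TUBB3 transcript, 89.0% occurred in other annotated genes in all, with AC092143.1 first among them. AC092143.1 itself had a count of 0 in every library. The neuronal markers went in both directions, with a median log2 fold change of -0.02 over the 5 tested, and their part in the TUBB3 values was not tested.

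**Figure D3:**
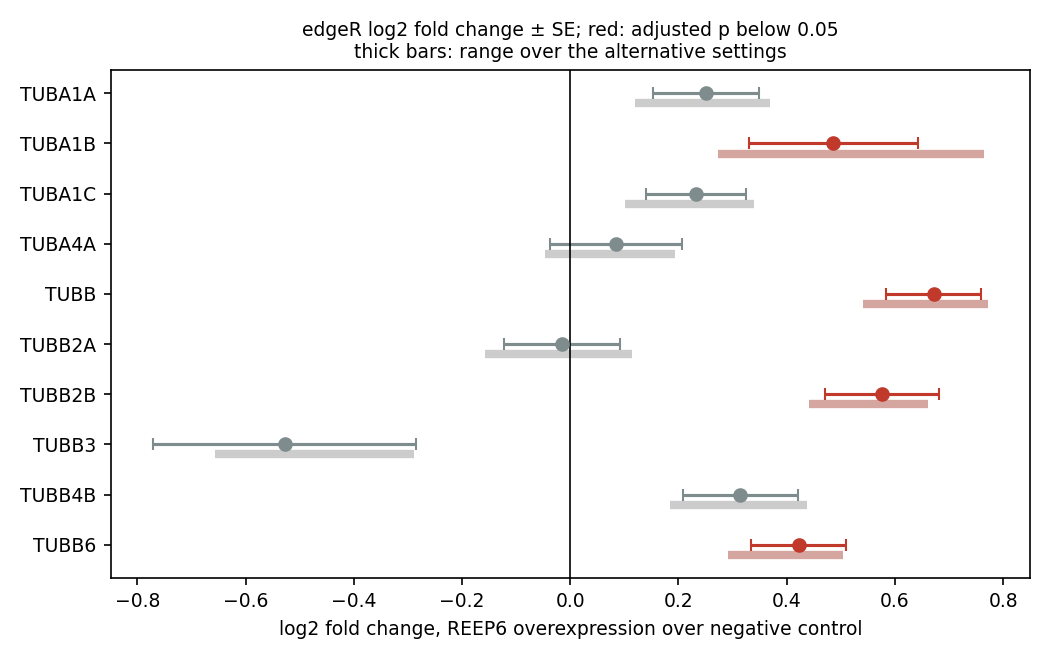
edgeR log2 fold change ± SE of the 10 tubulin genes, REEP6 overexpression over negative control (horizontal axis), with red for an adjusted p below 0.05. Thick bars give the lowest and highest value over the alternative settings. The bars of all 4 called genes keep to the right of 0.2 throughout, and the bar of TUBA1B is the longest of the 4.

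Among the alpha genes, TUBA1B alone was called higher, and narrowly. TUBA1B (ENSG00000123416, chromosome 12, 49127782 to 49131397, minus strand) encodes an alpha-tubulin made in most tissues. It had 3822 and 3180 counts with REEP6, against 2916 and 2402 in the controls, and 80.8 and 66.9 FPKM with REEP6, against 63.5 and 44.2 FPKM in the controls. The second library of each group was well below the first, so that REEP6 replicate 2 came close to control replicate 1. Its log2 fold change was 0.49 ± 0.156 (SE; edgeR adjusted p 0.0477). The call ended in 11 of 17 alternative settings, among them without control replicate 2 (log2 fold change 0.27, edgeR adjusted p 0.121), without REEP6 replicate 1 (0.34, edgeR adjusted p 0.0769), with equal FPKM sums (0.35, edgeR adjusted p 0.156) and with DESeq2 (adjusted p 0.208). Without control replicate 1 the log2 fold change was 0.76. The size of the TUBA1B change thus rests on single libraries.

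TUBA1A, the alpha-tubulin that dominates in developing neurons, and TUBA1C lie beside TUBA1B on chromosome 12. TUBA1A (ENSG00000167552, 49184796 to 49189324, minus strand) had 92.9 and 105 FPKM with REEP6, against 79.4 and 89.9 FPKM in the controls. Its log2 fold change was 0.25 ± 0.0972 (SE; edgeR adjusted p 0.0871). TUBA1C (ENSG00000167553, 49188736 to 49274603, plus strand) had 42.8 and 46.6 FPKM with REEP6, against 36.6 and 40.9 FPKM in the controls, with a log2 fold change of 0.23 ± 0.0921 (SE; edgeR adjusted p 0.0936). In neither gene did the groups overlap, and neither passed. Without control replicate 2 both were called, TUBA1A at a log2 fold change of 0.37 (edgeR adjusted p 0.027) and TUBA1C at 0.34 (edgeR adjusted p 0.0342). TUBA1A and TUBA1C overlap on opposite strands over 490 exon bases, which is 14.3% of TUBA1A and 10.6% of TUBA1C. The ratio of TUBA1C to TUBA1A was nearly constant, at 0.46 and 0.444 with REEP6 and 0.461 and 0.455 in the controls.

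TUBA4A, whose coding sequence ended without a tyrosine codon, was the least abundant alpha member and showed no difference beyond the spread of its replicates. TUBA4A (ENSG00000127824, chromosome 2, 219249711 to 219278170, minus strand) had 425 and 503 counts with REEP6, against 408 and 538 in the controls. Its level was 7.87 and 9.27 FPKM with REEP6, against 7.78 and 8.67 FPKM in the controls, with overlapping groups. The log2 fold change was 0.08 ± 0.122 (SE; edgeR adjusted p 0.656), and its sign turned to -0.05 with equal FPKM sums.

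Per length the order of levels was TUBB4B, TUBB, TUBA1A, TUBA1B, TUBB2A, TUBA1C, TUBB6, TUBB2B, TUBA4A and TUBB3. The deposited FPKM used the union of exons as length, such as 3574 bases for TUBA1B and 4117 for TUBB6. Their principal transcripts hold 1627 and 2064 bases, while for TUBB2A the lengths are close, at 1727 and 1595. The order, and the sums and shares below, depend on these lengths and on the division of shared reads. TUBB4B at 304 to 431 FPKM, TUBB at 175 to 294 FPKM, TUBA4A at 7.78 to 9.27 FPKM and TUBB3 at 0.836 to 1.44 FPKM stood apart from their neighbours in every library. From TUBA1A to TUBB2B each gene's range over the 4 libraries overlapped that of the next. Within libraries TUBA1B was above TUBB2A, and TUBB2A above TUBA1C, in 3 of 4. The alpha members summed to 224 and 228 FPKM with REEP6, against 187 and 184 FPKM in the controls. The beta members summed to 767 and 838 FPKM with REEP6, against 579 and 640 FPKM in the controls. Both sums were higher with REEP6 without overlap, by 1.22-fold for alpha and 1.32-fold for beta. Their ratio, 0.293 and 0.272 with REEP6 against 0.324 and 0.287 in the controls, overlapped between the groups. Together the 10 genes took 0.287% and 0.306% of all counts with REEP6, against 0.218% and 0.233% in the controls. FPKM summed over all genes was itself higher with REEP6, at 288404 and 287580, against 262497 and 273154 in the controls. Of this total the 10 genes took 0.3436% and 0.3705% with REEP6, against 0.2918% and 0.3015% in the controls. The alpha and beta sums above were not scaled for this difference in total FPKM.

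**Figure D4:**
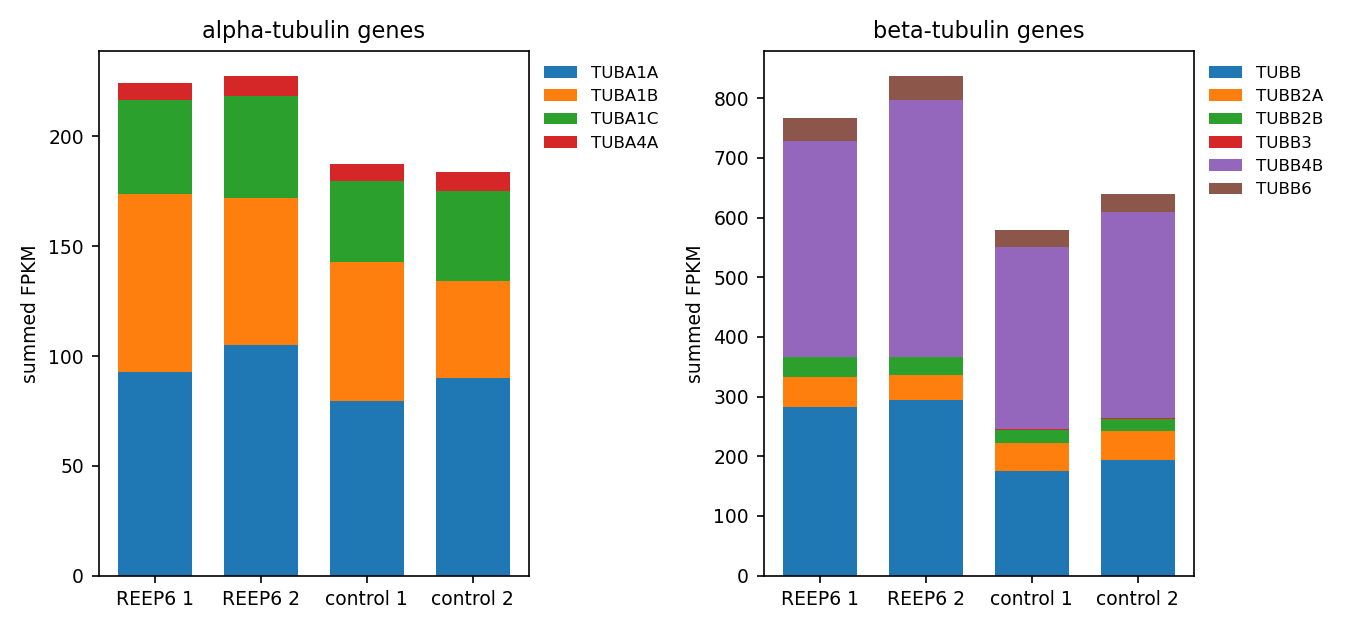
Summed FPKM of the alpha (left) and beta (right) tubulin genes in each library, with a colour for each isotype. TUBB4B and TUBB make up most of the beta sum, and the TUBB block is taller in both REEP6 libraries. TUBB3 is too small to see.

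Within the beta sum the balance between the main isotypes differed between the groups. TUBB made up 36.9% and 35.1% of beta-tubulin FPKM with REEP6, against 30.3% and 30.2% in the controls. TUBB4B made up 47.2% and 51.4% with REEP6, against 52.5% and 54.0% in the controls. The TUBB share was 5.71 percentage points higher and the TUBB4B share 3.93 points lower with REEP6, without overlap in either. Without REEP6 replicate 1 the differences were 4.82 and -1.83 points, and without REEP6 replicate 2 they were 6.61 and -6.02 points. The share of TUBB2A was 6.66% and 5.10% with REEP6, against 8.19% and 7.68% in the controls, and that of TUBB3 0.109% and 0.118%, against 0.212% and 0.225%. The share of TUBB6 was 4.93% and 4.83% with REEP6, against 4.95% and 4.82% in the controls, so TUBB6 changed in step with the beta sum. The share of TUBB2B, 4.23% and 3.48% with REEP6 against 3.86% and 3.10% in the controls, overlapped between the groups. The direct ratio of TUBB to TUBB4B was 0.78 and 0.682 with REEP6, against 0.576 and 0.56 in the controls.

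In the alpha sum the shares of the main isotypes overlapped between the groups. TUBA1A made up 41.4% and 46.1% of alpha-tubulin FPKM with REEP6, against 42.4% and 49.0% in the controls. TUBA1B made up 36.0% and 29.4% with REEP6, against 33.9% and 24.1% in the controls. In both shares the replicates differed by more than the group means did. TUBA4A alone of the alpha members had a share without overlap, at 3.51% and 4.07% with REEP6 against 4.15% and 4.72% in the controls. The second replicate had less TUBA1B and more TUBA1A than the first in both groups. The TUBA1B level was 18.0% lower in replicate 2 than in replicate 1 with REEP6 and 30.1% lower in the controls, on TMM-scaled CPM (counts relative to the scaled library total). On the same scale the TUBA1A level was 11.9% higher in replicate 2 with REEP6 and 13.6% higher in the controls. The sum of TUBA1A, TUBA1B and TUBA1C was steadier, at 216 and 218 FPKM with REEP6 against 179 and 175 FPKM in the controls. The labels do not say that equal replicate numbers mark a shared day or batch.

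**Figure D5:**
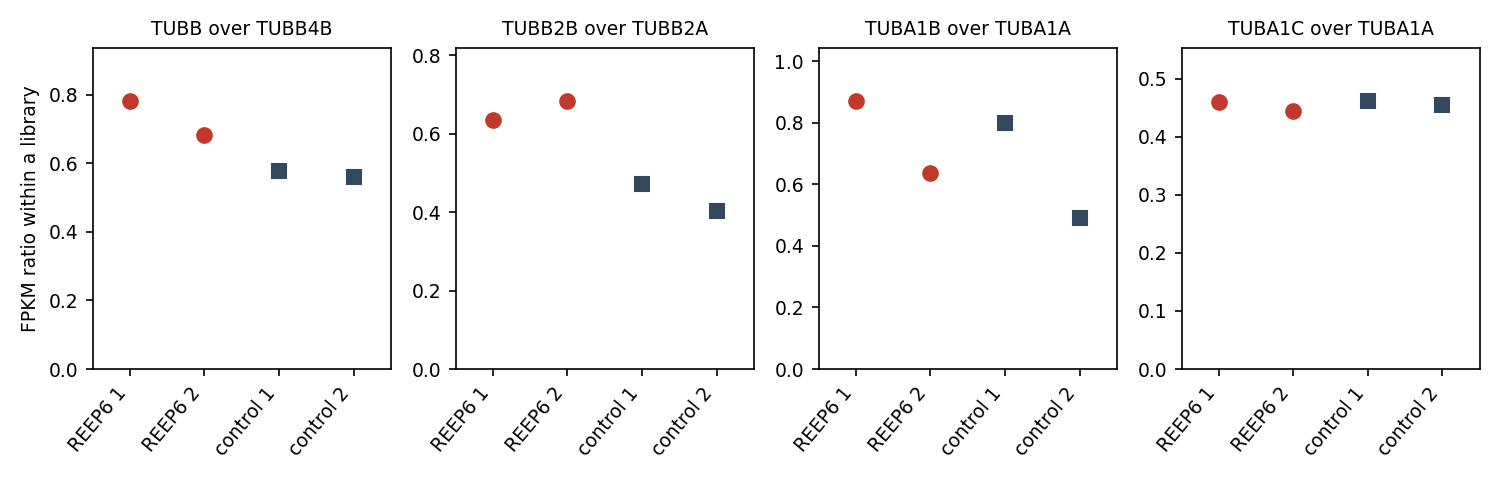
FPKM ratio of a pair of tubulin genes within each library (vertical axes from 0), with red circles for REEP6 and dark squares for controls. The groups separate for TUBB over TUBB4B and TUBB2B over TUBB2A, TUBA1B over TUBA1A moves with the replicate number instead, and TUBA1C over TUBA1A is flat.

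Other tubulin genes were rarer or did not pass. Of 12, the 5 above the filter were TUBG1 and TUBG2, the gamma-tubulins that nucleate microtubules, TUBD1 and TUBE1 of the centriole, and TUBA3D, and 0 were called in either direction with edgeR. At an unadjusted p of 0.05 the edgeR test took TUBG1 and TUBG2, and DESeq2 and limma also called 0 of the 5. Without control replicate 2 the edgeR test called 1 of them higher. TUBG1 had 16.9 and 14.9 FPKM with REEP6, against 12.2 and 14.1 FPKM in the controls (log2 fold change 0.30 ± 0.123 SE, edgeR adjusted p 0.103). TUBG2 had 7.99 and 8.43 FPKM with REEP6, against 10.1 and 11.3 FPKM in the controls (log2 fold change -0.36 ± 0.126 SE, edgeR adjusted p 0.065). TUBA3D, the least abundant of the 5, had 1.37 and 1.98 FPKM with REEP6, against 0.876 and 1.03 FPKM in the controls. Its log2 fold change of 0.83 ± 0.383 (SE; edgeR adjusted p 0.14) was the largest of the 5. TUBB1, TUBB4A, TUBB8, TUBA8, TUBA3C, TUBA3E and TUBAL3 were below the filter. In the gamma-tubulin ring complex, which caps and nucleates microtubules, 2 of 9 tested genes fell and 0 rose: TUBGCP6 (log2 fold change -0.66 ± 0.0961 SE) and TUBGCP5 (-0.42 ± 0.0938 SE). Over all genes tested 14.2% were called lower and 10.9% higher, so this count is near the background. The TUBGCP5 call ended without REEP6 replicate 1 (edgeR adjusted p 0.0506). In this list 2 genes were higher without REEP6 replicate 2, and 2 without control replicate 1.

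Of 21 tested genes for tubulin folding (the CCT chaperonin, prefoldin, the tubulin cofactors and TTC5), 1 rose and 1 fell, beside 10.9% higher and 14.2% lower over all genes tested, with a median log2 fold change of 0.11. ARL2, a small GTPase that works with the tubulin cofactors, had 12.1 and 14.4 FPKM with REEP6, against 8.40 and 8.83 FPKM in the controls (log2 fold change 0.65 ± 0.14 SE, edgeR adjusted p 0.01). TBCEL, a relative of cofactor E that destabilises tubulin, fell by 0.36 on the log2 scale (edgeR adjusted p 0.0341). ARL2 did not pass without REEP6 replicate 2 (edgeR adjusted p 0.0504), nor TBCEL without REEP6 replicate 1 (0.195) or control replicate 2 (0.177). The list had 3 genes higher without control replicate 1 and 2 without REEP6 replicate 2, and 0 lower without REEP6 replicate 1 or control replicate 2. TTC5, the factor that reads the start of nascent tubulin, averaged 2.64 FPKM with REEP6 and 2.18 FPKM in the controls (log2 fold change 0.31, edgeR adjusted p 0.103, chosen for its role).

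Of 15 tested enzymes that modify tubulin and their partners, 3 rose and 3 fell, beside 10.9% higher and 14.2% lower over all genes tested. AGTPBP1, a carboxypeptidase that shortens glutamate chains on tubulin, fell to 6.76 and 7.79 FPKM with REEP6, against 12.6 and 12.9 FPKM in the controls (log2 fold change -0.78 ± 0.103 SE, edgeR adjusted p 0.00119). The polyglutamylase gene TTLL7 fell 1.92-fold and the glycylase gene TTLL3 1.87-fold. TTLL12 rose 1.37-fold, AGBL5 1.32-fold and TTLL4 1.23-fold. With a correction for GC content the log2 fold change of AGTPBP1 was -0.52 and that of TTLL7 was -0.58, against -0.94 without it. TTLL3 missed the threshold with limma on log2(FPKM + 1), at a limma adjusted p of 0.052. The number higher fell to 1 without REEP6 replicate 1 or without control replicate 2, and to 2 without control replicate 1 or REEP6 replicate 2. TTL, the ligase that restores the terminal tyrosine, had a log2 fold change of 0.10 (edgeR adjusted p 0.434).

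Of 25 tested genes of microtubule dynamics 4 rose and 6 fell, beside the same 10.9% and 14.2% over all genes tested. The 4 that rose were CLIP2 (1.33-fold), MAP4 (1.27-fold), MAP1S (1.24-fold) and the stathmin STMN3 (1.23-fold). STMN3 had 155 and 164 FPKM with REEP6, against 126 and 137 FPKM in the controls. The 4 with the smallest p were all lower with REEP6, and CKAP5 and CAMSAP2 also fell. CLASP2, which stabilises growing ends, fell 1.61-fold, CLIP1, a plus-end linker, 1.55-fold, MAPRE3, an end-binding protein, 1.81-fold and the tubulin-sequestering stathmin STMN2 1.61-fold. STMN2 is also among the neuronal markers above. STMN2 had 27.9 and 31.3 FPKM with REEP6, against 44.6 and 52.4 FPKM in the controls. The number higher was 0 without REEP6 replicate 1, 2 without control replicate 1 or REEP6 replicate 2, and 0 with equal FPKM sums, and the number lower was 4 without control replicate 2 or REEP6 replicate 2. Since microtubule genes are also used in division, 10 proliferation genes were set beside them. MKI67 rose 1.31-fold and the mitotic kinase gene PLK1 1.45-fold, TOP2A fell 1.49-fold, and the other 7 were not called, beside 10.9% higher and 14.2% lower over all genes tested. With the GC correction the log2 fold change of TOP2A was -0.29, against -0.58 without it (edgeR adjusted p 0.0471 with the correction). MKI67 did not pass without REEP6 replicate 1 (edgeR adjusted p 0.0894) or control replicate 2 (0.0711), and without control replicate 1 the list had 3 higher and 2 lower. The part of proliferation in the tubulin levels was not tested.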

How the data were processed

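Per the file headers, the authors deposited 1 table per library, holding raw counts beside FPKM per gene. The submitters' processing notes list HISAT2, HTSeq 0.13.5 and GRCh38 without saying what each was used for. Annotation, strand setting and the handling of ambiguous reads were not given in the sources used here. The deposited FPKM values were relative to each table's summed counts: 1 length per gene explained all libraries for 29161 genes (relative tolerance 0.0001), and for the 10 members it equalled the union of GENCODE release 29 exons. Groups come from the sample titles.

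Counts of the 13077 genes with at least 1 FPKM in at least 2 libraries were scaled by TMM and tested in R 4.3.3 with edgeR 4.0.16 (quasi-likelihood, abundance trend, group term, 2 residual degrees of freedom, two-sided, Benjamini-Hochberg adjustment over all of them, threshold 0.05). Fold changes are REEP6 over control. SE is the log2 fold change over the square root of F. FPKM is given as mean ± SD. The method was tested on simulated data. Alternatives used limma 3.58.1, DESeq2 1.42.0 and the settings named in the closing section. Window sharing was sought on the transcribed strand of all GENCODE transcripts. All 10 members matched RefSeq promoters.

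The members, lists and tests were chosen with earlier results of these data known. All members are named, with up to 4 called genes of smallest p from each list and the markers that reached 1 FPKM in a library. Genes named outside this rule were chosen after their values were seen or for their role.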

Additional observations from a re-analysis of the deposited data

How the results depend on the processing

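TUBB, TUBB2B and TUBB6 were called higher in all 17 alternative settings, and 0 members were called lower in any. All settings kept the deposited counts, so they do not address reads shared between TUBB2A and TUBB2B. The number of members called higher was 4, and it ranged from 3 (GC correction, equal FPKM sums, library totals, limma, a minimum of 5 FPKM, no abundance trend, an adjusted p of 0.01) to 7 (a replicate block). It was 6 with no filter on low values, and 4 to 6 when 1 library was left out. Under equal FPKM sums the median over all genes tested was -0.14 on the log2 scale. Relative to it TUBB was at 0.68, TUBB2B at 0.58, TUBB6 at 0.43 and TUBA4A at 0.09, and without that subtraction TUBA4A was at -0.05. The TUBB share of beta-tubulin was higher by 4.82 to 6.61 points and that of TUBB4B lower, at -6.02 to -1.83 points, when 1 library was left out. The TUBA1B share of alpha-tubulin, 3.73 points higher with REEP6, ranged from -1.18 (without control replicate 2) to 8.63 points, and the TUBA1A share, at -1.94 points, from -5.21 to 1.34 points, being 0.40 without REEP6 replicate 1. The cause was not tested. Over all genes 1422 were called higher and 1854 lower, against 495 and 897 at an adjusted p of 0.01, 658 and 2826 with equal FPKM sums, 634 and 1272 with limma on log2(FPKM + 1), 1172 and 1147 with the GC correction, 936 and 1411 at a minimum of 5 FPKM, 940 and 1272 without REEP6 replicate 1, and 2957 and 3062 with the replicate block. Over the same 17 settings the list counts ranged, higher and lower, over 0 to 5 and 0 to 3 for folding (1 and 1 as reported), 1 to 5 and 1 to 3 for modification (3 and 3), 0 to 8 and 4 to 7 for dynamics (4 and 6), 0 to 3 and 1 to 2 for the ring complex (0 and 2), 1 to 6 and 1 to 2 for proliferation (2 and 1), and 0 to 1 in each direction for other tubulins (0 and 0). The calls of TBCEL and TUBGCP5 also ended with the GC correction (edgeR adjusted p 0.277 and 0.0734), TBCEL with DESeq2 (adjusted p 0.0965), and MKI67 with equal FPKM sums (edgeR adjusted p 0.134). Scaling by library totals and the GC correction were chosen after seeing the data. Libraries with the same replicate number deviated together (correlation 0.27 over 13077 genes), but the labels do not tie the numbers to a shared culture or day, so the block, which added TUBA1A, TUBA1C and TUBB4B to the members called higher, is given here alone. With 2 libraries a group, a change as small as that of TUBA4A was not detectable.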
